A study of Mus musculus with 28 samples.

Results

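The expression of 9 chemokine genes was followed in mouse tail tendon, out of 25719 genes counted by bulk RNA-sequencing. They comprised 6 CC ligands (Ccl2, Ccl7, Ccl8, Ccl11, Ccl6 and Ccl9), the CXC ligand Cxcl12 and the receptors Ccr2 and Cxcr4, and they were listed by name. They are only a portion of the chemokine family and were picked with earlier results of these data known, so their share of calls is not that of a list drawn without them. The study compared Fosl-2(Tg) mice, a model of systemic sclerosis, with nontransgenic WT controls of the same breeding, all on a background labelled C57BL/6. In the transgenic mice an inserted copy of murine Fosl2, the gene of an AP-1 family factor, is driven by the major histocompatibility complex class I promoter H2Kb, so the extra copy is not restricted to tendon cells. Each library came from the whole tail tendon fascicles of 1 mouse, without sorting of cells. The early cohort held 7 WT and 8 Fosl-2(Tg) mice of 6 to 8 weeks, all of them male. The established cohort held 6 WT and 7 Fosl-2(Tg) mice older than 14 weeks, with 1 male in each genotype and 5 and 6 females. Stage and sex therefore cannot be told apart in comparisons across cohorts.

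Chemokines are small secreted proteins that bind G protein-coupled receptors and guide leukocytes along gradients. Ccl2 and Ccl7 are ligands of Ccr2 or of related receptors and draw monocytes from blood, and Ccl8 is a further CC ligand. Ccl11 acts on eosinophils, and Ccl6 and Ccl9 are rodent CC ligands made largely by myeloid cells. Cxcl12 is produced by stromal cells and signals through Cxcr4, a pairing best known for holding blood progenitors in bone marrow.

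The 6 CC ligand genes lie in a pair of stretches of chromosome 11 (GRCm39). Ccl2 (ENSMUSG00000035385, chr11:81926397-81928279), Ccl7 (ENSMUSG00000035373, chr11:81936532-81938351), Ccl11 (ENSMUSG00000020676, chr11:81948618-81953781) and Ccl8 (ENSMUSG00000009185, chr11:82006007-82007625) share the plus strand within 81.2 kb. Ccl9 (ENSMUSG00000019122, chr11:83463745-83473161) and Ccl6 (ENSMUSG00000018927, chr11:83478708-83483913) share the minus strand within 20.2 kb, 1456 kb further along. Cxcl12 (ENSMUSG00000061353) lies on chromosome 6 (117144945-117158328, plus strand), Ccr2 (ENSMUSG00000049103) on chromosome 9 (123901982-123913594, plus strand) and Cxcr4 (ENSMUSG00000045382) on chromosome 1 (128515936-128520044, minus strand). Ccl6 and Ccl9 overlap a lncRNA gene on the opposite strand, E230016K23Rik, which has no row of its own in the counts. The strand setting of the counting is not stated, so reads of these genes cannot be told apart from those of the lncRNA, and reads shared between paralogous CC ligands are uncertain in the same way.

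Start-site sequences were available from RefSeq (GRCm38.p6, 250 bases before to 50 after each start) for 6 of the 9 genes, Ccl2, Ccl7 and Ccl11 being the others. Ccl6 and Ccl9 are shown because they were the CC ligands called between established genotypes. Their most alike windows of 30 bases had 27 identical bases, with the 3 differing bases in capitals. The Ccl9 window (GRCm38.p6 chr11:83578598-83578627, minus strand) began at position 9 from its start site, and the Ccl6 window (chr11:83593083-83593112, minus strand) at position -25.
Ccl9: tgttccctctCttagaactagcAtgttgGg
Ccl6: tgttccctctTttagaactagcCtgttgTg
The AP-1 motif TGACTCA, searched on both strands because Fosl2 belongs to the AP-1 family, was in 0 of the 6 windows and in 5.2% of 32851 promoters of the same length. The NF-kB consensus was in 1 of the 6, that of Ccl9, and in 8.46% of all promoters. This match, in capitals, began at position -35 and lay on the reverse strand of the gene (window chr11:83578652-83578681).
Ccl9: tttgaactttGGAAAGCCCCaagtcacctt
The TATA box TATAAA was in 3 of the 6 windows (Ccl8, Ccl9 and Cxcr4) and in 13.6% of all promoters. In Ccl9 it began at position -92 and, on the reverse strand, at positions -94 and -224, further from the start site than in Ccl8 and Cxcr4. In Ccl8 (window chr11:82115141-82115170, plus strand) it began at position -32, and in Cxcr4 (window chr1:128592312-128592341, minus strand) at position -30, where TATAAA and its reverse TTTATA overlap.
Ccl8: ttccctgctcccTATAAAaggcagattaga
Cxcr4: ggagcgtgttttTATAAAagtccggttcgg
These matches describe letters in a window only, and no binding was measured.

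The libraries held 9645598 to 66894396 counts, and levels are given as CPM, a gene's counts scaled to a common library size, after 1 TMM scaling of all 28 libraries. Each of 10 tendon fibroblast markers reached 1 CPM or more in some library of every group. So did each macrophage, endothelial, mural and skeletal muscle marker, so this does not single out the tissue label. Fosl2 itself was measured at 88.7 ± 26.1 CPM (SD, n = 7) in early WT, 102 ± 40.5 (n = 8) in early Fosl-2(Tg), 111 ± 32.7 (n = 6) in established WT and 143 ± 15.8 (n = 7) in established Fosl-2(Tg) mice. The genotypes overlapped at either stage, and the Fosl2 difference did not pass the test in the established cohort (edgeR quasi-likelihood test, log2 fold change 0.38 ± 0.15 SE, FDR = 0.141). Counts of the transgene and of the endogenous gene cannot be told apart here, so Fosl2 does not separate the labels. Among established Fosl-2(Tg) mice, mouse 5 stood apart for Cxcr4 and mice 6 and 7 for Ccr2 and Ccl8, and results that rest on them are given with and without them.

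**Figure D1:**
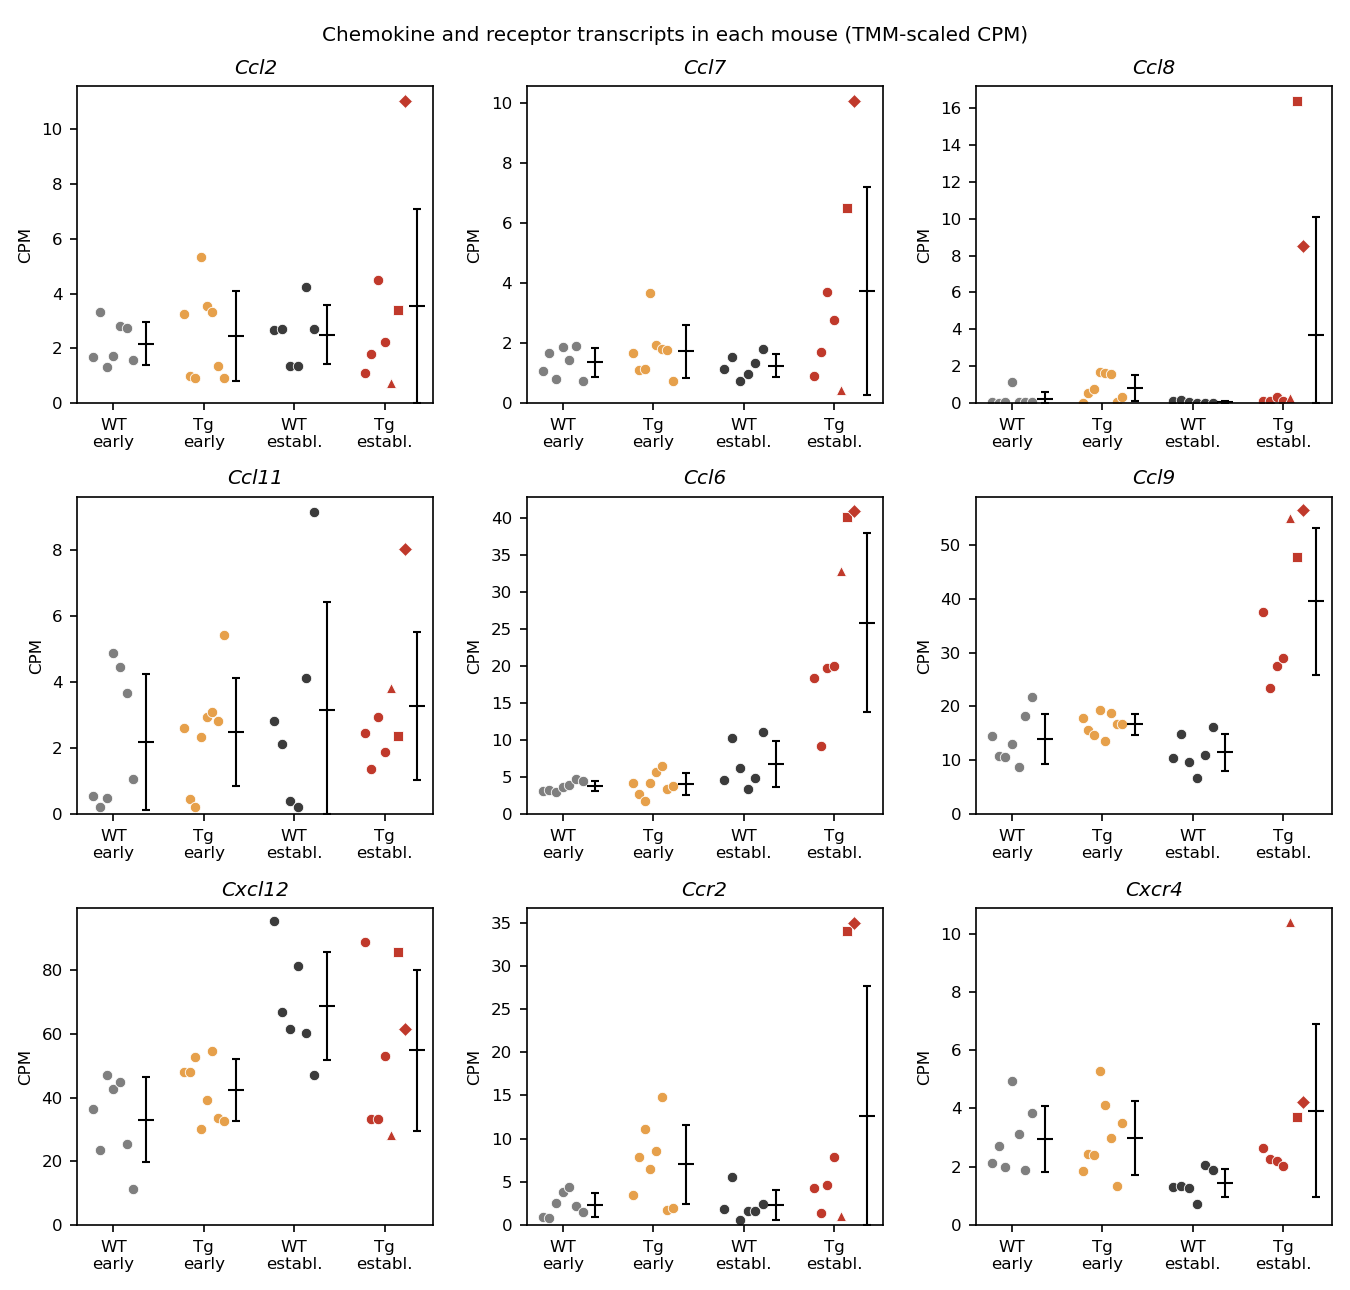
CPM of the 9 genes in each mouse (vertical axes, linear from 0), by group, with the mean and SD at the right of each group (lower bars end at 0). Tg stands for Fosl-2(Tg), and triangles, squares and diamonds mark the established Fosl-2(Tg) mice 5, 6 and 7. Ccl9 separated the established genotypes completely, whereas the high values of Ccl8 and Ccr2 came from mice 6 and 7.

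Tendons of established Fosl-2(Tg) mice had more Ccl6, Ccl9 and Cxcr4 transcript than WT tendons, and no member was called lower. Among the 8 members tested, 3 were therefore called higher at an FDR of 0.05, against 3.14% of the 15862 genes tested. The median log2 fold change of the 8 was 1.54, against 0.0054 over all genes tested. Ccl7 and Ccl9 were among the macrophage activation genes that the study itself picked from these mice, so their direction is not independent evidence. Since whole tissue was sequenced, fewer cells of a type and less RNA per cell cannot be told apart in any of these comparisons.

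Ccl9 gave the difference with the smallest FDR among the members. It ranged from 6.61 CPM (median 10.7) to 16.2 in the 6 established WT mice and from 23.3 (median 37.5) to 56.4 in the 7 Fosl-2(Tg) mice. All 7 Fosl-2(Tg) mice thus lay above the highest WT mouse, a separation in the higher direction that 1.48% of all genes showed. The means were 11.5 ± 3.50 and 39.5 ± 13.6 CPM, a log2 fold change of 1.80 ± 0.26 (SE, FDR = 0.00626).

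Ccl6, the neighbour of Ccl9, followed it closely. It ranged from 3.45 CPM (median 5.55) to 11.02 in established WT mice and from 9.21 (median 19.9) to 40.9 in Fosl-2(Tg) mice. The groups overlapped by 1 transgenic mouse, mouse 2, and the other 6 were above the highest WT value. The means were 6.74 ± 3.14 and 25.9 ± 12.1 CPM (log2 fold change 1.96 ± 0.37 SE, FDR = 0.0141). Both Ccl6 and Ccl9 kept their call when any 1 of the 13 established mice was left out and in all 8 other settings tried, with mice 6 and 7 left out together among them (log2 fold changes of 1.58 and 1.60).

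Of the 2 member receptors Cxcr4, the receptor of Cxcl12, was called. Established WT mice ranged from 0.725 CPM (median 1.31) to 2.07 and Fosl-2(Tg) mice from 2.01 (median 2.63) to 10.4. The highest value was that of mouse 5, far from the 4.22 CPM of the next mouse, and only mouse 4 lay within the WT range. The log2 fold change was 1.47 ± 0.41 (SE, FDR = 0.0470). The call was marginal: the FDR rose to between 0.0558 and 0.0926 when any 1 of the 6 WT mice or Fosl-2(Tg) mouse 1, 2, 6 or 7 was left out. Mouse 5 also had the lowest summed tendon fibroblast markers of its group (7367 CPM) and the highest summed osteoclast (19.5 CPM), dendritic cell (49.3 CPM) and skeletal muscle markers (4834 CPM), whose part in its Cxcr4 level was not tested. Without mouse 5 the log2 fold change was 1.01 and the FDR 0.0454. Of 8 other settings 6 called Cxcr4. It failed without the filter (FDR = 0.0563) and without mice 6 and 7 (FDR = 0.0671).

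Ccr2, which marks inflammatory monocytes and the macrophages derived from them, had the largest log2 fold change among the members tested in this cohort but failed the adjusted test. It ranged from 0.607 CPM (median 1.78) to 5.59 in established WT mice and from 1.01 (median 4.60) to 34.9 in Fosl-2(Tg) mice. Mice 6 and 7 stood at 34.0 and 34.9 CPM, and the other 5 Fosl-2(Tg) mice, at 1.01 to 7.86 CPM, overlapped the WT mice. The log2 fold change was 2.44 ± 0.82 (SE, FDR = 0.0853), and 0.73 (FDR = 0.415) without mice 6 and 7. DESeq2, the tool the authors used, gave an FDR of 0.0273, and the edgeR fit of all 28 libraries 0.0267. In simulated counts of the established comparison, 15.5% of DESeq2 calls were unchanged genes, against 6.43% of calls of the main edgeR test. Those counts were drawn with the spread per gene that edgeR estimated, so they cannot weigh DESeq2 against edgeR for Ccr2.

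Ccl8 split the same mice. It stood at 16.4 CPM in mouse 6 and 8.52 CPM in mouse 7, at 0.101 to 0.309 CPM in the other 5 Fosl-2(Tg) mice and at 0 to 0.166 CPM in WT mice. Behind these levels were at most 6 counts in any established WT library and up to 242 in a Fosl-2(Tg) library. Because most libraries had so few counts, Ccl8 did not pass the filter on low counts in either cohort and has no main test. Without the filter its FDR was 0.0482, with DESeq2 0.000736 and in the fit of all 28 libraries 0.00666, from levels in which mice 6 and 7 alone exceeded 0.309 CPM.

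Ccl7 and Ccl2, neighbours on chromosome 11 that both attract monocytes, differed by less. Ccl7 ranged from 0.737 CPM (median 1.24) to 1.80 in established WT mice and from 0.433 (median 2.77) to 10.1 in Fosl-2(Tg) mice. Mice 3, 4, 6 and 7 were above the WT range and mouse 5 below it. The log2 fold change was 1.60 ± 0.57 (SE, FDR = 0.0976), and 0.66 (FDR = 0.330) without mice 6 and 7. Ccl7 passed with DESeq2 (FDR = 0.0312), in the edgeR fit of all 28 libraries (FDR = 0.0289) and when mouse 5 was left out (FDR = 0.0484).

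Ccl2 ranged from 1.34 CPM (median 2.68) to 4.25 in established WT mice and from 0.722 (median 2.22) to 11.04 in Fosl-2(Tg) mice. Its medians and means pointed in opposite directions, with mouse 7 alone at 11.04 CPM and the next mouse at 4.49. The log2 fold change of 0.53 ± 0.53 (SE, FDR = 0.547) became -0.11 without that mouse. Ccl11, the eosinophil attractant, spread as widely in WT (0.223 to 9.14 CPM, median 2.47) as in Fosl-2(Tg) mice (1.35 to 8.03 CPM, median 2.44), with a log2 fold change of 0.11 ± 0.68 (SE, FDR = 0.930).

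Cxcl12 was the only member with a lower mean in established Fosl-2(Tg) tendons, and the difference did not pass the test. It ranged from 47.1 CPM (median 64.4) to 95.4 in WT mice and from 28.2 (median 53.1) to 89.0 in Fosl-2(Tg) mice. Mice 2, 3 and 5 lay below the lowest WT mouse and the other 4 within the WT range (log2 fold change -0.32 ± 0.28 SE, FDR = 0.466). Ackr3, the scavenger receptor of Cxcl12, was at 134 ± 31.3 CPM in WT and 147 ± 52.4 in Fosl-2(Tg) mice (log2 fold change 0.14 ± 0.22 SE, FDR = 0.695).

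**Figure D2:**
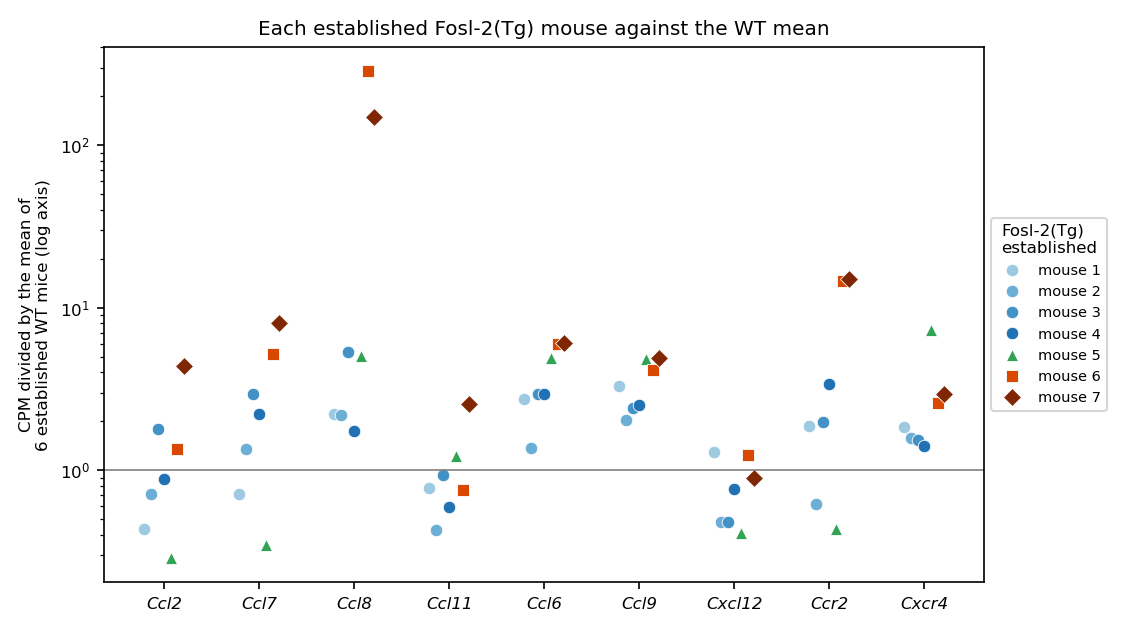
CPM of each of the 7 established Fosl-2(Tg) mice divided by the mean of the 6 established WT mice (log axis), for each of the 9 genes. Mice 6 and 7 were 14.7 and 15.1 times the WT mean (line at 1) for Ccr2, and mouse 5 was the highest for Cxcr4. The WT mean of Ccl8 was 0.0576 CPM, near the counting floor.

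The transgenic mice thus did not rank alike across the members. Mouse 7 was the highest of its group for Ccl2, Ccl7, Ccl11, Ccl6, Ccl9 and Ccr2. Mouse 5 was the highest for Cxcr4 and the lowest for Ccl2, Ccl7, Ccr2 and Cxcl12. The summed level of 11 macrophage markers was 1003 CPM in mouse 6 and 1203 in mouse 7, within and at the top of the 864 to 1203 of the group. Summed monocyte markers were 319 and 302 CPM in these mice, within the group's 266 to 365, although 4 of the 6 monocyte markers were below 1 CPM in every established Fosl-2(Tg) library.

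**Figure D3:**
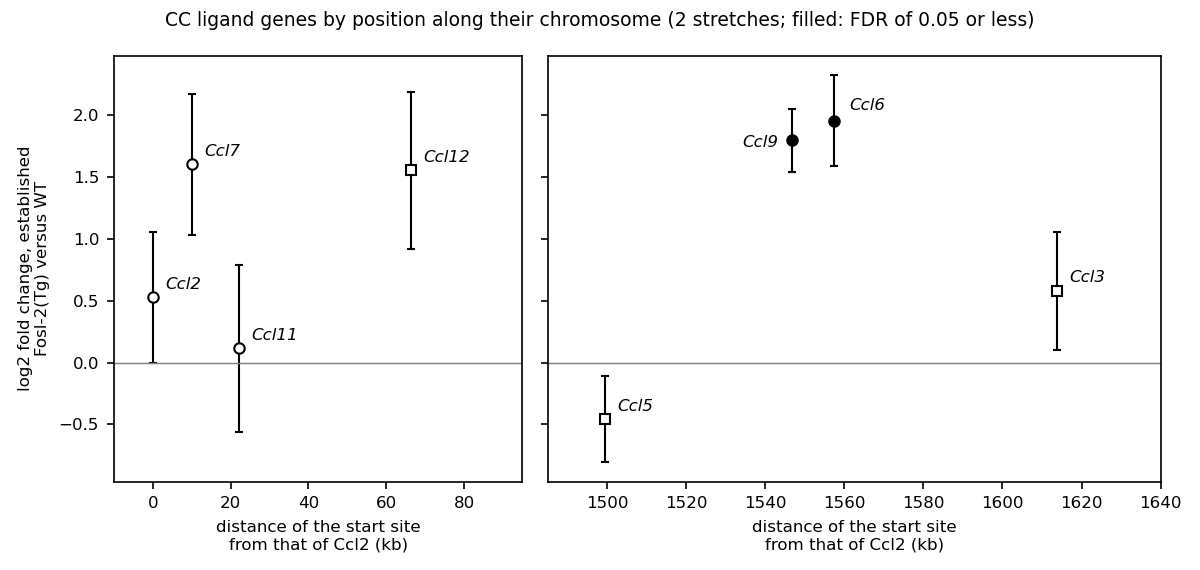
Log2 fold change of established Fosl-2(Tg) versus WT mice (point, with SE) of the CC ligand genes tested, against the distance of their start sites from that of Ccl2 in kb, in a panel for each stretch. Circles are members and squares other CC ligands. The filled points, Ccl9 at 1.80 and Ccl6 at 1.96, sit together, with Ccl5 and Ccl3 on either side of them not called.

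Along chromosome 11, genes between or beside the members did not all differ with them. Ccl12, which lies between Ccl11 and Ccl8, had a log2 fold change of 1.55 ± 0.64 (SE, FDR = 0.142). Ccl5 and Ccl3, on either side of the Ccl9 and Ccl6 stretch, had log2 fold changes of -0.46 ± 0.35 (FDR = 0.414) and 0.58 ± 0.48 (FDR = 0.451). These 3 genes were chosen for their position. All were low, at a mean of 0.789, 0.674 and 0.692 CPM over the 28 libraries.

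In the early cohort no member passed the test. Of 8 members tested 0 were called, against 0.0396% of the 15138 genes tested, which is 6 genes (11 with the replicate number as a block). All 8 log2 fold changes were above 0, as were those of 47.3% of all genes, and their median was 0.23. Apart from Ccr2, they lay between 0.03 (Cxcr4) and 0.37 (Ccl7), with an FDR of at least 0.853.

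Ccr2 was the member that differed most in the early cohort. It ranged from 0.832 CPM (median 2.15) to 4.45 in early WT mice and from 1.76 (median 7.22) to 14.8 in early Fosl-2(Tg) mice. The groups overlapped, with 5 of the 8 Fosl-2(Tg) mice above the highest WT mouse. The log2 fold change was 1.59 ± 0.46 (SE, FDR = 0.564), with an unadjusted p of 0.00332 in the same edgeR test, a threshold of 0.05 that 1.96% of all genes passed in the higher direction. With the replicate number as a block the FDR was 0.111.

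Ccl9 and Ccl6, which differed later, were close between early genotypes. Ccl9 ranged from 8.67 CPM (median 13.02) to 21.7 in WT and from 13.5 (median 16.7) to 19.4 in Fosl-2(Tg) mice (log2 fold change 0.25 ± 0.16 SE, FDR = 0.853). Ccl6 ranged from 3.03 CPM (median 3.60) to 4.72 in WT and from 1.81 (median 3.99) to 6.51 in Fosl-2(Tg) mice (0.12 ± 0.22, FDR = 0.946). The spread between mice was larger than either difference.

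Ccl8 was again too low for the filter. It stood at 0 to 1.69 CPM (median 0.654) in early Fosl-2(Tg) mice and at 0 to 1.13 (median 0.0541) in WT mice. Mice 4, 5 and 6 of the Fosl-2(Tg) group lay above the WT mice, of which mouse 4 at 1.13 CPM was far from the others. Without the filter, the early difference had an FDR of 0.762.

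**Figure D4:**
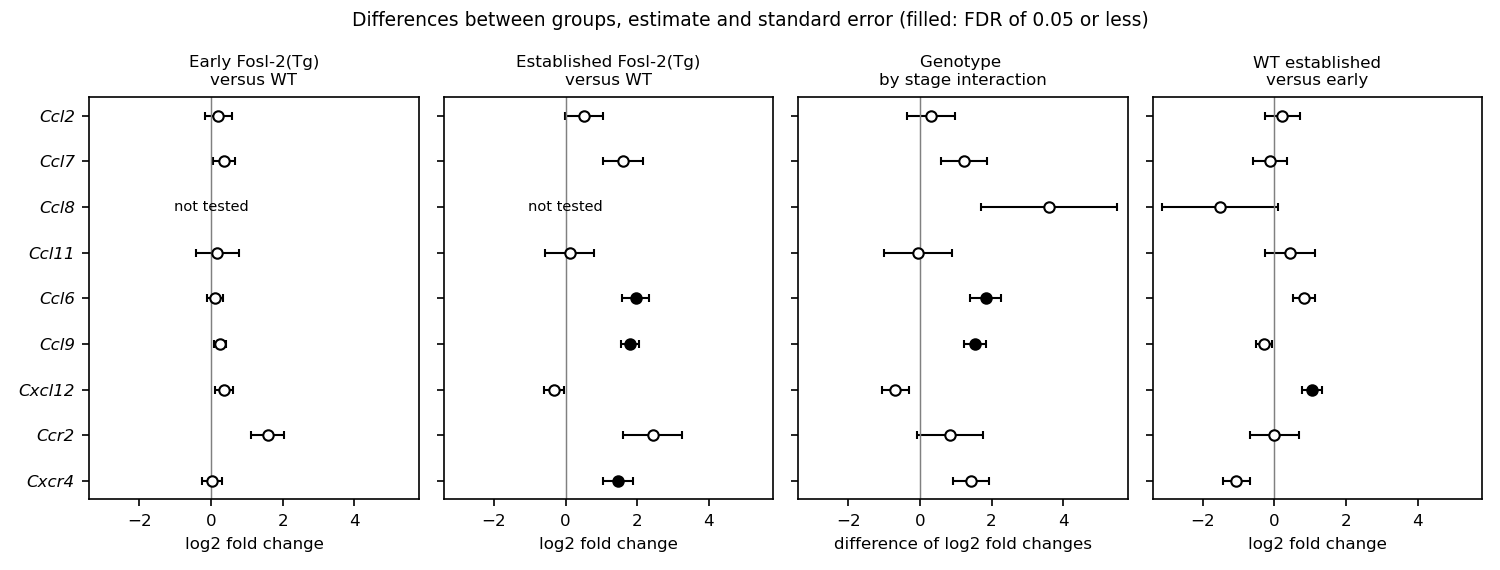
Log2 fold change of each member (point) with its SE in the 4 comparisons, and filled points where the FDR was 0.05 or less. Filled points are Ccl6, Ccl9 and Cxcr4 between established genotypes, Ccl6 and Ccl9 in the genotype by stage interaction, and Cxcl12 between WT stages. Ccl8 was not tested within cohorts.

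Whether the genotype difference itself changed with stage was tested by an interaction term over the 4 groups. Of the 9 members 2 were called, Ccl6 and Ccl9, both with a larger difference in the established cohort, against 3.43% of the 16082 genes tested in that direction and 7.43% in either. The difference between the log2 fold changes, established minus early, was 1.83 ± 0.43 (SE, FDR = 0.0126) for Ccl6 and 1.54 ± 0.30 (SE, FDR = 0.00498) for Ccl9. Both stayed called whichever 1 of the 28 mice was left out. Cxcr4 gave 1.42 ± 0.49 (SE, FDR = 0.0719). It passed in 2 of 6 other settings, the blocked fit (1.29, FDR = 0.0303) and DESeq2 (1.43, FDR = 0.0400). Of 28 fits with 1 mouse left out 0 called it, and without established Fosl-2(Tg) mouse 5 it gave 0.97 (FDR = 0.143). Ccl7 gave 1.23 ± 0.64 (FDR = 0.232) and Ccl8 3.62 ± 1.90 (FDR = 0.232), which turned to -0.59 without the established Fosl-2(Tg) mice 6 and 7. Ccr2 gave 0.84 ± 0.92 (FDR = 0.594), so that its differences at the 2 stages were not shown to differ.

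Between WT stages, Cxcl12 was the only member called among 9, higher in established mice, against 2.33% of the 16082 genes tested in that direction and 5.81% in either. It ranged from 11.2 CPM (median 36.6) to 47.2 in early WT and from 47.1 (median 64.4) to 95.4 in established WT mice. Only the lowest established mouse fell within the early range. The log2 fold change was 1.06 ± 0.28 (SE, FDR = 0.0258). The FDR was 0.0609 without early WT mouse 6, 0.0733 without established WT mouse 1 and 0.0663 without established WT mouse 4.

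Cxcr4 had the opposite sign between WT stages, with means of 2.95 ± 1.12 CPM in early and 1.43 ± 0.481 in established WT mice (log2 fold change -1.06 ± 0.37 SE, FDR = 0.0829). It passed with DESeq2 (FDR = 0.0425) and in a fit of the WT libraries alone (FDR = 0.0489). Ccl6 was at 3.73 ± 0.672 CPM in early and 6.74 ± 3.14 in established WT mice (0.83 ± 0.31, FDR = 0.108). The established Fosl-2(Tg) mean of Cxcr4, 3.92 ± 2.97 CPM, was beside an early WT mean of 2.95 and an early Fosl-2(Tg) mean of 2.99 ± 1.27. That established mean includes mouse 5 at 10.4 CPM. By median, established Fosl-2(Tg) mice stood at 2.63 CPM, early WT at 2.70 and early Fosl-2(Tg) at 2.72. Established WT mice had the lowest mean of the 4 groups.

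**Figure D5:**
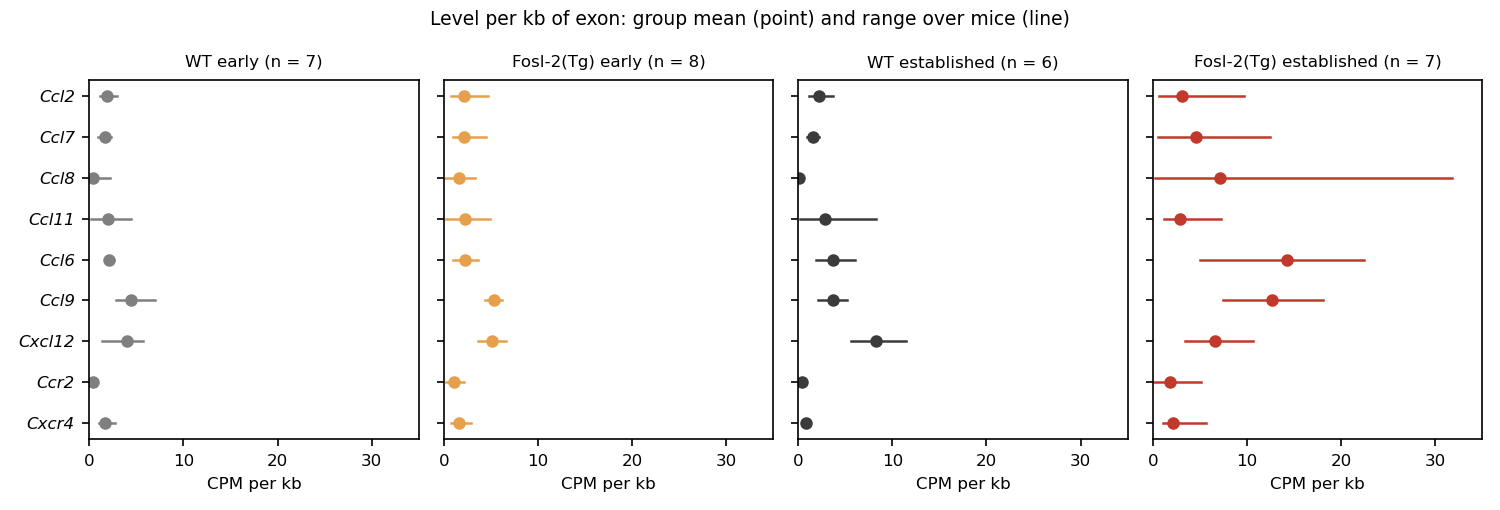
Mean (point) and range over mice (line) of the CPM per kb of exon in each group, on a linear axis shared by the 4 groups. Ccl9 and Cxcl12 had the highest means in both early groups, and Ccl6 and Ccl9 in established Fosl-2(Tg) mice.

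Levels of different genes were compared per kb of merged exon length. In early mice Ccl9 (4.47 ± 1.49 CPM per kb in WT, 5.34 ± 0.649 in Fosl-2(Tg)) and Cxcl12 (3.97 ± 1.60 and 5.09 ± 1.16) had the highest means. Ccr2 had the lowest mean (0.342 ± 0.206 and 1.04 ± 0.675), with Ccl8 next. Ccl8 was above Ccr2 in only 1 of 7 early WT and 4 of 8 early Fosl-2(Tg) mice. In established WT mice Cxcl12 led at 8.25 ± 2.05 CPM per kb, followed by Ccl6 at 3.71 ± 1.73 and Ccl9 at 3.68 ± 1.12. In established Fosl-2(Tg) mice the means of Ccl6 (14.2 ± 6.67) and Ccl9 (12.7 ± 4.38) came before those of Ccl8 (7.17 ± 12.4) and Cxcl12 (6.58 ± 3.02). The place of Ccl8 rested on mice 6 and 7, as it was above Cxcl12 in only 2 of the 7 mice. Without mice 6 and 7 its mean fell from 3.69 to 0.191 CPM. Neighbours in each order overlapped in range in all 4 groups, so the order within these pairs was not separated from the spread between mice.

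How the members varied together was described by Pearson's r of log2 CPM after the mean of each of the 4 groups had been subtracted, over the 28 libraries, which share depth and tissue composition. The closest pair of members was Ccl2 and Ccl7 (r = 0.87), each the other's nearest among 14524 genes. Ccl8 and Ccr2 gave 0.74 and Ccl6 and Ccl9 0.71. Cxcl12 and its receptor Cxcr4 gave -0.26.

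The genes nearest to each member differed from one member to the next. For Ccr2 they were Cd74 (r = 0.89), the invariant chain of antigen presentation, Rbpjl (0.88) and Matn4 (0.88). For Ccl8 they were the matrix metalloproteinases Mmp10 (0.93) and Mmp13 (0.90) and Plekhg4 (0.90), a pattern in which Ccl8 itself had few counts. For Ccl9 they were the leukocyte tetraspanin Cd53 (0.81), Ms4a6d (0.80) and Zfp984 (0.77), and for Ccl6 the complement protease C1s1 (0.79), Gnl2 (0.76) and Vmp1 (0.76). Beside each other, the genes near Ccl2 and Ccl7 included Enox1 (0.82) for Ccl2 and Olfml2b (0.85) for Ccl7. For Ccl11 they were Itgb6 (0.92), Mylk4 (0.91) and Agbl1 (0.90). Cxcr4 was nearest to Ecd (0.77), Retreg1 (0.75) and Rin3 (0.73), and Cxcl12 to Nr2f2 (0.80), Prkg2 (0.80) and Tpbgl (0.80).

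In the early cohort 0 of the 43 other chemokine system genes tested were called, against 0.0396% of all genes. These were 8 CC ligands, 5 CXC, CX3C and XC ligands, 8 receptors, 4 atypical receptors and 18 signal transducers. Of the 43, 11 had a log2 fold change above 0, against 47.3% of all genes, and their median was -0.16, against -0.01 over all genes. Cxcl16, a membrane-bound ligand, had the smallest unadjusted p among those named here (0.00183, edgeR) with a log2 fold change of -0.45 ± 0.12 (SE, FDR = 0.459).

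In the established cohort, 0 of 9 other CC ligands, 1 of 6 other CXC, CX3C and XC ligands (lower), 2 of 8 other receptors (1 higher and 1 lower), 0 of 4 atypical receptors and 1 of 18 signal transducers (lower) were called, against 6.51% of all genes in either direction. Cx3cr1, the fractalkine receptor of resident macrophages and patrolling monocytes, fell from 5.02 ± 1.53 CPM in WT to 1.41 ± 0.642 in Fosl-2(Tg) mice (log2 fold change -1.81 ± 0.28 SE, FDR = 0.00804). Its highest Fosl-2(Tg) mouse stood at 2.62 CPM and its lowest WT mouse at 3.05. The share of all genes that separated in the lower direction is not given here. Cxcl14, a ligand made by epithelia and fibroblasts, fell from 125 ± 53.3 to 42.6 ± 29.9 CPM (-1.54 ± 0.43, FDR = 0.0473), and Prex1, a Rac exchange factor activated by G protein beta-gamma subunits, from 272 ± 53.2 to 144 ± 39.1 CPM (-0.91 ± 0.19, FDR = 0.0192). Ccr9, a homing receptor of gut T cells, rose from 2.29 ± 0.224 to 3.58 ± 0.806 CPM (0.64 ± 0.16, FDR = 0.0322). The Cxcl14 call was lost without Fosl-2(Tg) mouse 1, 2, 3, 4 or 6 or WT mouse 1, 2, 4, 5 or 6 (FDR up to 0.107), the Ccr9 call without Fosl-2(Tg) mouse 1 or 3 or WT mouse 1, 2, 4, 5 or 6 (FDR up to 0.0704), and either with females alone (FDR = 0.0512 and 0.0675). Of 8 other settings, females alone among them, 6 called Cxcl14 and 6 called Ccr9 (FDR up to 0.0561 and 0.0716).

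Ccr1, the receptor through which Ccl6 and Ccl9 act, was looked up after its values were seen. It stood at 4.69 ± 1.36 CPM in established WT and 6.21 ± 3.06 in Fosl-2(Tg) mice, with overlapping ranges (3.42 to 6.82 and 3.39 to 12.2 CPM). Of 12 cytokines that induce chemokines, 5 passed the filter in the established cohort and 0 were called, with a median log2 fold change of -0.07.

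In the interaction, Cxcl14 (-1.98 ± 0.48 SE, FDR = 0.0151) and Prex1 (-1.03 ± 0.26 SE, FDR = 0.0209) were the other chemokine system genes called. Between WT stages, the B cell attractant Cxcl13 (2.69 ± 0.72 SE, FDR = 0.0271) was higher, and Cxcl14 (-1.31, FDR = 0.0287), Cxcl16 (-0.84, FDR = 0.00555) and the platelet chemokine Pf4 (-0.74, FDR = 0.0451) were lower in established mice. Cxcl13 was sparse, with at most 4.21 CPM in any WT mouse. The Cxcl13 call was lost without early WT mouse 4, 5, 6 or 7 or established WT mouse 1 or 3 (FDR up to 0.0928), that of Cxcl14 without early mouse 4 or 5 or established mouse 1, 3, 4 or 5 (FDR up to 0.0823), and that of Pf4 without early mouse 1, 2, 6 or 7 or established mouse 1, 2, 3, 4 or 5 (FDR up to 0.122). Of 5 other settings, 4 called Cxcl13, 4 called Cxcl14 and 2 called Pf4 (FDR up to 0.0517, 0.0538 and 0.122).

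Markers of leukocytes were measured beside these genes, since myeloid cells both make and answer CC chemokines. Summed over 11 macrophage markers, established Fosl-2(Tg) mice had 864 to 1203 CPM and WT mice 639 to 903, and 2 markers were called higher, Cd163 (log2 fold change 1.07 ± 0.14 SE, FDR = 0.00465) and Lyve1 (0.68 ± 0.19 SE, FDR = 0.0456). In the early cohort the sums were 662 to 959 CPM in Fosl-2(Tg) and 762 to 1211 in WT mice, with 0 of 11 called. The part of macrophage content in the Ccl6, Ccl9 and Cxcr4 differences was not tested, and a change in these markers also went with stage, 3 of 11 being called higher in the interaction.

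Other leukocyte markers were sparse. Each of 9 neutrophil markers was below 1 CPM in every early library, and the established Fosl-2(Tg) mice summed to 0.908 to 7.51 CPM, the highest being mouse 6. Eosinophil and mast cell markers summed to less than 1 CPM in every mouse, with the mast cell marker Fcer1a at 0 in all 28 libraries. T cell markers summed to at most 2.09 CPM and B and plasma cell markers to at most 8.53 in established Fosl-2(Tg) mice. Of 3 osteoclast markers tested, Acp5 (1.40 ± 0.38 SE, FDR = 0.0450) and Atp6v0d2 (2.53 ± 0.49 SE, FDR = 0.0153) were higher in established Fosl-2(Tg) mice, where the 5 markers summed to 4.08 to 19.5 CPM against 2.22 to 4.46 in WT mice.

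The structural cells moved too. Tendon fibroblast markers summed to 7367 to 79575 CPM in established Fosl-2(Tg) and 100080 to 190467 in WT mice, and 4 of 10 were called lower, Col1a1 (-2.50 ± 0.63 SE, FDR = 0.0356), Col1a2 (-2.23), Tnmd (-2.03) and Scx (-1.27). Because a CPM is a share of the counted RNA, part of every level set against these groups depends on how such abundant transcripts changed. RLE scaling in place of TMM changed no member's call. Both scalings take most genes as unchanged, so their agreement does not test that dependence. Skeletal muscle markers varied from 34.7 to 4834 CPM among established Fosl-2(Tg) and from 48.6 to 14289 among WT mice (0 of 7 called), and erythroid markers from 10.2 to 126 and from 8.94 to 20.1 CPM (0 of 4 called). Of the remaining marker lists, 1 of 4 mural genes was called lower (Acta2, -0.72 ± 0.19 SE, FDR = 0.0444), while endothelial, Schwann cell and dendritic cell genes gave 0 calls between established genotypes. Keratinocyte and adipocyte markers summed to at most 3.81 and 1.50 CPM in any mouse. In the interaction 4 of 5 erythroid markers were called higher (Hba-a1 3.50, Hba-a2 4.95, Hbb-bs 5.33 and Hbb-bt 5.52), as were the monocyte marker F13a1 (0.87, FDR = 0.0238) and the Schwann cell marker Mbp (1.27, FDR = 0.0457). The part of these cell types in the chemokine differences, those of Ccl6 and Ccl9 between stages included, was not tested.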

How the data were processed

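Bulk RNA-sequencing of mouse tail tendon fascicles was available for 28 libraries, each from 1 mouse, with genotype, stage, sex and replicate number taken from the labels and ages from the study's text. Per the study's methods, reads were aligned with STAR to GRCm39 (GENCODE release M26) and assigned to genes with featureCounts. The deposited counts are whole numbers that the authors neither normalized nor filtered. The strand setting and the handling of multi-mapped reads are not given in the sources used here. Of 25719 identifiers, 25505 were named with GENCODE release M39. Totals ranged from 9645598 to 66894396 counts, so a gene at 1 CPM rested on few counts in the shallowest libraries.

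Counts were filtered with filterByExpr (minimum count 10, by group), scaled by TMM and tested with edgeR 4.0.16 (quasi-likelihood, R 4.3.3), Fosl-2(Tg) versus WT within each stage, and with 1 fit of the 4 groups for the interaction and for WT stages. FDRs are Benjamini-Hochberg values over all genes tested, and calls are at 0.05. SEs were taken as the log2 fold change over the root of the test's F. The scripts were tested on simulated counts, in which unchanged genes made up a larger share of DESeq2 calls than of edgeR calls in each comparison. These counts were drawn with the spread that edgeR estimated, so they do not rank the tools. Members and gene lists were chosen with earlier results of these data known. Named genes were the 9 members, chemokine system genes called in any comparison or reaching a mean of 5 CPM (15 at most, by level), called markers (4 at most per list) and the 3 genes most alike to each member among those with a mean of at least 1 CPM (log2 CPM with a prior count of 2). 1 of these alike genes is not reported here.

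Alternatives were DESeq2 1.42.0, RLE scaling, no filter, the replicate number as a block, other sets of libraries, sex, and each library left out. Fits without established Fosl-2(Tg) mice 6 and 7 were chosen after seeing the data. Samples of the same number deviated together in the early cohort in all 7 pairs (r = 0.129 to 0.363), although 0 of 7 correlated best with their own number, so the blocked value is given beside the early results whose count it changed. The main fits held no block. No 2 libraries of a group agreed within counting noise (chi-square per degree of freedom of at least 7.02). Promoter windows were from RefSeq (GRCm38.p6). Figures were drawn with matplotlib 3.10.9.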

Additional observations from a re-analysis of the deposited data

Results flagged for a closer look

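Of 36 sets of values (9 genes in 4 groups), 6 held a mouse far from the others of its group by Dixon's test. Chance alone flags about 1 in 20 sets of normally spread values. The CPM tested were not log-scaled, and the sets share mice, so an excess over chance was not shown. The 6 flagged values were each the highest of their set. They were Ccl2 in established Fosl-2(Tg) mouse 7 (11.04 CPM), Ccl7 in early Fosl-2(Tg) mouse 4 (3.65 CPM), Ccl8 in early WT mouse 4 (1.13 CPM), Ccl11 in established Fosl-2(Tg) mouse 7 (8.03 CPM), Ccr2 in established WT mouse 2 (5.59 CPM) and Cxcr4 in established Fosl-2(Tg) mouse 5 (10.4 CPM). The high Ccr2 and Ccl8 values of established Fosl-2(Tg) mice 6 and 7 were not among them, since that test looks for a single distant mouse.

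The genotype difference changed with stage by the interaction term for 4 chemokine system genes: it was larger in the established cohort for Ccl6 (difference of log2 fold changes 1.83, FDR = 0.0126) and Ccl9 (1.54, FDR = 0.00498), and lower for Cxcl14 (-1.98, FDR = 0.0151) and Prex1 (-1.03, FDR = 0.0209). Stage cannot be told apart from sex in these 4 results.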

How the results depend on the processing

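The calls of Ccl6 and Ccl9 in the established cohort and in the interaction were kept in every alternative run. Members called numbered 0 in the early cohort whichever mouse was left out (0 to 0), 2 to 4 in the established cohort, 2 to 2 in the interaction and 0 to 1 between WT stages. In the established cohort DESeq2 and the fit of all 28 libraries called 6 members each, in the interaction DESeq2 and the replicate block called 3 each, and between WT stages DESeq2 and the WT libraries alone called 2 each. All genes called, with 6, 1032, 1195 and 935 in the early, established, interaction and WT stage comparisons, came to 24, 2206, 1798 and 1581 with DESeq2. Leaving out single mice gave 4 to 12, 361 (without established WT mouse 1) to 1166, 702 (without early WT mouse 2) to 1876 (without early WT mouse 5) and 419 (without established WT mouse 3) to 1391. Established calls came to 1663 with all 28 libraries, 560 in females only and 1591 without mice 6 and 7, and interaction calls to 725 without the established males. The replicate block gave 11 early and 2000 interaction calls. In the established and WT stage comparisons 4 of 6 pairs each had a correlation over 0.1 (r from -0.223 to 0.688 and from -0.674 to 0.705) and 2 of 6 correlated best with their own number. Not every pair deviated together, so the numbers were not taken as pairs there. 

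Signs that changed belonged to results that passed no test. With the block, Ccl2 became -0.17 (established) and -0.37 (interaction), Ccl7 0.010 (WT stages), Ccl11 0.16 and Ccr2 -0.33 (interaction), Ccr2 0.084 (WT stages) and Cxcr4 -0.035 (early). Without mice 6 and 7, Ccl2 became -0.23 (established) and -0.43 (interaction), Ccl8 -0.59 and Ccr2 -0.86 (interaction) and Ccl11 -0.30 (established), and without the established males Ccl11 became 0.0042 (interaction). Leaving out single mice moved Ccl2 from -0.055 to 0.33 (early), -0.11 to 0.75 (established), -0.31 to 0.58 (interaction) and -0.018 to 0.35 (WT stages), Ccl6 from -0.018 to 0.23 (early), and Ccl8 from -2.27 to 0.30 (WT stages). It moved Ccl11 from -0.076 to 0.47 (early), -0.31 to 0.77 (established), -0.47 to 0.60 (interaction) and -0.22 to 0.71 (WT stages), Ccr2 from -0.51 to 0.21 (WT stages) and Cxcr4 from -0.13 to 0.21 (early). The cause was not tested. Depth limits Ccl8 most: with at most 6 counts in an established WT library, its level there is near the counting floor.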
